A study of Mus musculus with 6 samples.

Results

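In RAW 264.7 cells given bacterial lipopolysaccharide (LPS), 116 of 9607 measured genes had a treated-over-untreated ratio that was higher in the third of 3 experimental sets than in the other sets. A gene was taken when its log2 ratio on each of the 2 set 3 arrays lay over 1 above the mean of the set 1 and set 2 arrays of the same dye orientation. By this rule 123 genes passed, and 7 of them (Casp1, Tlr3, Tfrc, Hif1a, Lpl, Rgs1 and Idi1) were left out. The genes were thus selected on the ratios themselves, so the difference between set 3 and the other sets is described here and carries no test.

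RAW 264.7 is a mouse cell line that resembles macrophages. Treated cells received LPS at 100 ng/ml together with LPS-binding protein at 100 pM for 16 hours, and untreated cells were kept for the same 16 hours. Total RNA of both was put together on each of 6 two-colour arrays, with treated RNA in Cy5 on 3 arrays and in Cy3 on 3, and each orientation held a set 1, a set 2 and a set 3. The labels do not say that the sets were separate cultures, so the p-values reflect only how far these samples differ, and that may be technical spread.

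All values are log2 ratios within an array, turned to treated over untreated, so a value of 1 is a doubling in treated cells. The deposited table does not state its direction. Cy5 over Cy3 was taken as likely, since the labels name the Cy5 RNA as the test. With this direction 29 of 29 measured interferon-stimulated genes, which LPS is known to induce, were called higher in treated cells of sets 1 and 2. The limma fit that gave these calls is described below, and it called 16.4% of all genes higher. Ratios give no expression levels, so the presence of macrophage markers could not be checked from them, and the number of arrays limits the precision. None of the 53 measured markers of macrophages or 9 other cell types passed the rule. The 7 fibroblast markers were all slightly higher in set 3 than in sets 1 and 2 (by 0.07 to 0.58). So were the 3 adipocyte markers (by 0.22 to 0.66), against 4839 of all 9607 genes. Exact zeros, which were taken as missing ratios, made up 12.86% of the probes on the set 3 array with treated RNA in Cy5 and 9.56% to 10.79% on the others. The part of these differences in the results below was not tested.

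LPS-binding protein hands LPS to CD14, which loads it onto the receptor TLR4 and its partner MD-2, the product of Ly96. The receptor then signals to NF-kappaB, which switches on inflammatory cytokines, and to IRF3, which switches on interferon beta. Macrophages that respond to LPS are also known to slow their division, with lower levels of mRNAs for DNA replication and mitosis.

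Large differences between set 3 and the other sets had one direction. No gene lay more than 1 below the mean of sets 1 and 2 on both set 3 arrays, against the 123 that lay more than 1 above it. At a difference of 0.3 on both arrays there were 680 genes above and 164 below, at 0.5 there were 339 genes above and 9 below, and at 1.5 there were 37 above and 0 below. The median difference over all 9607 genes was 0.01 with treated RNA in Cy5 and 0.00 with treated RNA in Cy3. The deposited columns each have a median of 0, so this says nothing of a shift of a whole array. Across all genes the difference correlated at r = 0.57 between the orientations, and at 0.383 over the 9484 genes that did not pass. The difference between set 1 and set 2 correlated at -0.035 between the orientations. These are descriptions across genes, which are not independent replicates, and the 2 set 3 arrays may share their RNA.

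**Figure D1:**
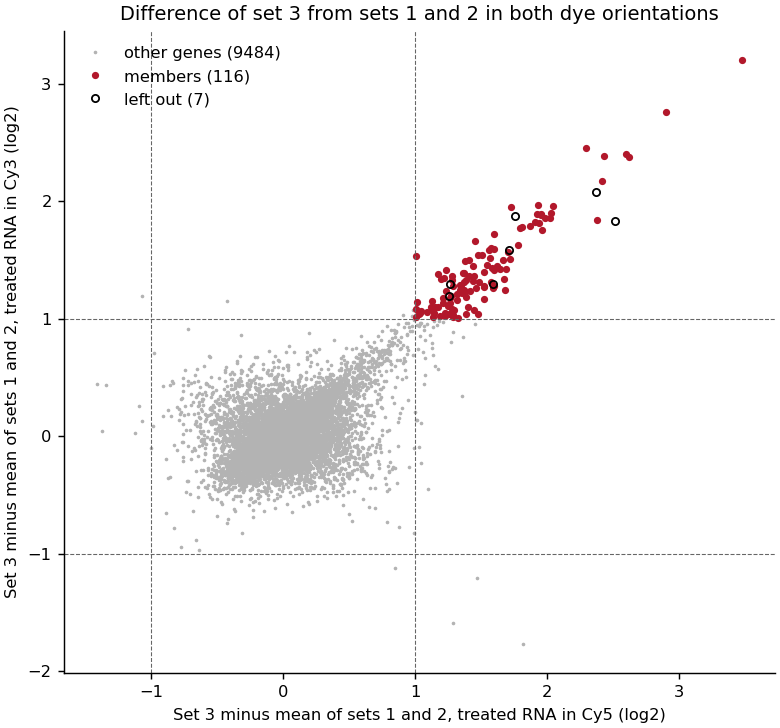
Each point is a gene, placed by its log2 ratio on the set 3 array minus the mean of sets 1 and 2, with treated RNA in Cy5 on the horizontal axis and in Cy3 on the vertical axis; dashed lines mark 1 and -1. The 116 members (red) and the 7 left-out genes (open circles) form a tail to the upper right, and no gene lies below -1 on both axes.

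Not all of these genes were raised in set 3 alone. Over the 116 genes the set 3 ratio (mean of the 2 arrays) ran from -0.03 through a median of 1.31 to 3.92, and the mean of sets 1 and 2 ran from -1.34 through a median of -0.16 to 2.65. The medians over all genes were 0.00 in set 3 and -0.01 in sets 1 and 2. The set 3 ratio was over 1 for 81 members (5.05% of all genes had this) and over 2 for 17 (1.46%). Both set 3 arrays were above 0 for 114 members (35.7% of all genes), and both lay above all 4 other arrays for all 116, against 11.5% of all genes. All 4 arrays of sets 1 and 2 were below 0 for 55 members (21.1% of all genes). For 53 members (45.7%) treated cells were higher on both set 3 arrays and lower on all 4 arrays of sets 1 and 2, a pattern held by 2.15% of all genes. For 30 members (25.9%, against 18.6% of all genes) treated cells were higher on all 6 arrays, and set 3 only had the larger rise. Because the rule subtracts the sets 1 and 2 mean, genes that happened to be low in those sets were easier to select, and these shares are descriptions.

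Ranked by the smaller of their differences in the 2 orientations, the 12 widest separations belonged to genes of unlike function. Fam111a, encoding a protease that limits virus replication in human cells, had ratios of 3.16 and 2.75 on the set 3 arrays, against -0.19, -0.45, -0.29 and -0.60 on the arrays of sets 1 and 2. Here and below, each group's arrays with treated RNA in Cy5 come before those with it in Cy3, and set 1 before set 2. Treated cells thus had 7.75 times the untreated level of Fam111a in set 3, against 0.766 of it in sets 1 and 2. Sh3bgrl, a small thioredoxin-like protein, had 3.16 and 3.04 in set 3, against 0.11, 0.42, 0.27 and 0.31 in sets 1 and 2. Ube2w, a ubiquitin-conjugating enzyme, had 3.14 and 2.86 in set 3, against 0.42, 0.67, 0.39 and 0.52. In all 3 genes the arrays within a set differed by under 0.5 and set 3 stood far apart from the rest.

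Cysltr1, a receptor for cysteinyl leukotrienes, changed sign. It had 1.66 and 1.68 in set 3, against -0.95, -0.58, -0.92 and -0.49 in sets 1 and 2, and both of its probes showed this. Zfp120, a zinc finger protein, had 2.90 and 2.66 in set 3, against 0.14, 0.42, 0.12 and 0.46. Atp5md, a small subunit of the mitochondrial ATP synthase, had 1.87 and 1.51 in set 3, against -0.47, -0.39, -0.94 and -0.95. Top2b, a DNA topoisomerase of non-dividing as well as dividing cells, had 2.01 and 2.36 in set 3, and in sets 1 and 2 it had -0.34 and -0.48 with treated RNA in Cy5 but 0.06 and 0.32 with treated RNA in Cy3. The order of the groups was the same for each of these genes, with no overlap, as the rule largely ensures.

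The remaining 5 of these 12 were Ssb, Rock1, Arhgap5, Pus3 and St8sia4. Ssb encodes the La protein, which binds the ends of new RNA polymerase III transcripts, and had a set 3 ratio of 1.83 against -0.17 in sets 1 and 2. Rock1, a kinase that controls actomyosin contraction, had 1.99 in set 3 against 0.04. Arhgap5, a GTPase-activating protein, had 1.66 in set 3 against -0.30. The pseudouridine synthase Pus3 had 2.05 in set 3 against 0.14, and St8sia4, which makes polysialic acid, had 1.61 against -0.31. All 5 were thus near or slightly below 0 in sets 1 and 2 and 1.91 to 2.00 higher in set 3 by the mean of both orientations. By that mean Stap1, at 2.11, lay above these 5, and Esco2, at 1.94, above Pus3 and St8sia4.

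**Figure D2:**
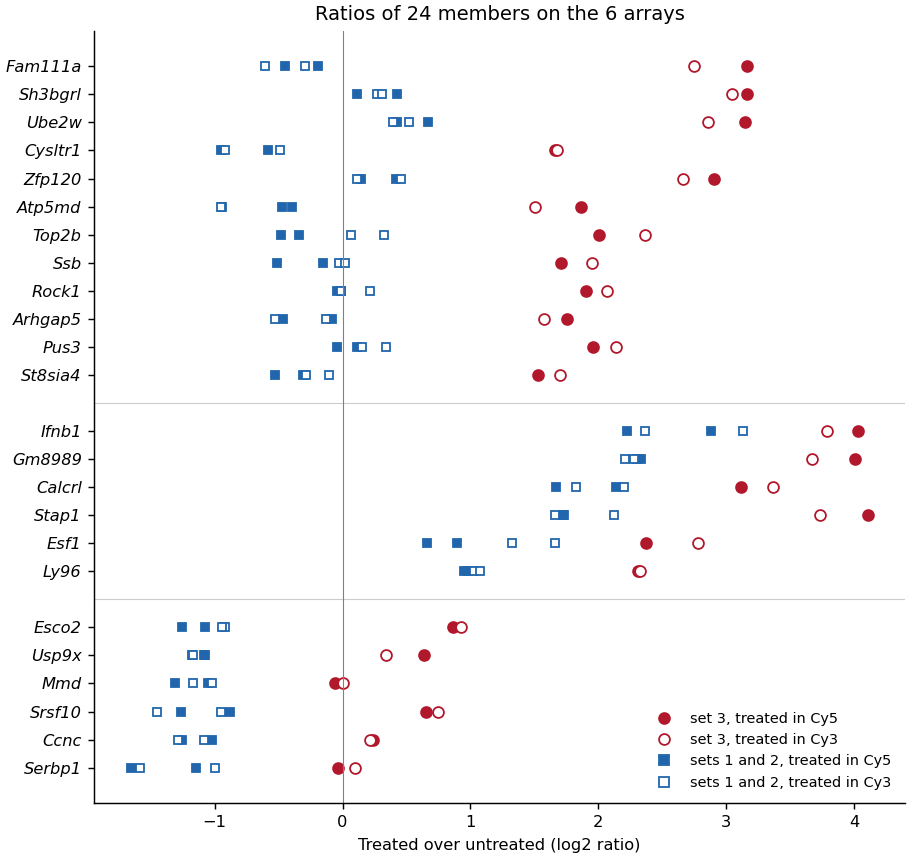
Log2 ratios (treated over untreated, horizontal axis) of 24 members on the 6 arrays, with set 3 as red circles and sets 1 and 2 as blue squares (filled, treated RNA in Cy5; open, treated RNA in Cy3). The top block holds the 12 widest separations by the smaller difference of the 2 orientations, the middle block the 6 members highest in sets 1 and 2, and the bottom block the 6 lowest; set 3 lies to the right in every row.

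The response in sets 1 and 2 was tested gene by gene against 0 with limma across all 9607 genes. P-values were adjusted by Benjamini-Hochberg, with 0.05 as the threshold, taking each set as the mean of its 2 arrays. Of all genes 31.1% were called (16.4% higher in treated cells and 14.7% lower). Of the 116 members, 64 (55.2%) were called, 22 higher and 42 lower, and 52 were not. The larger share of lower calls goes in the direction that the rule favours and is read no further. With exact zeros kept as ratios of 1, limma warned of zero variances, and 0 members and 0 genes of any kind were called in this fit. The cause was not tested. Over all 3 sets, where 31.4% of genes were called, 22 members were called (20 higher and 2 lower, the 2 being Serbp1 and Mmd). This mean includes the set 3 ratios that selected the members, so the count is a description. It was 3 with robust moderation and 2 with zeros kept, with 0 lower in both cases, and without set 3 it is the 64 above.

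**Figure D3:**
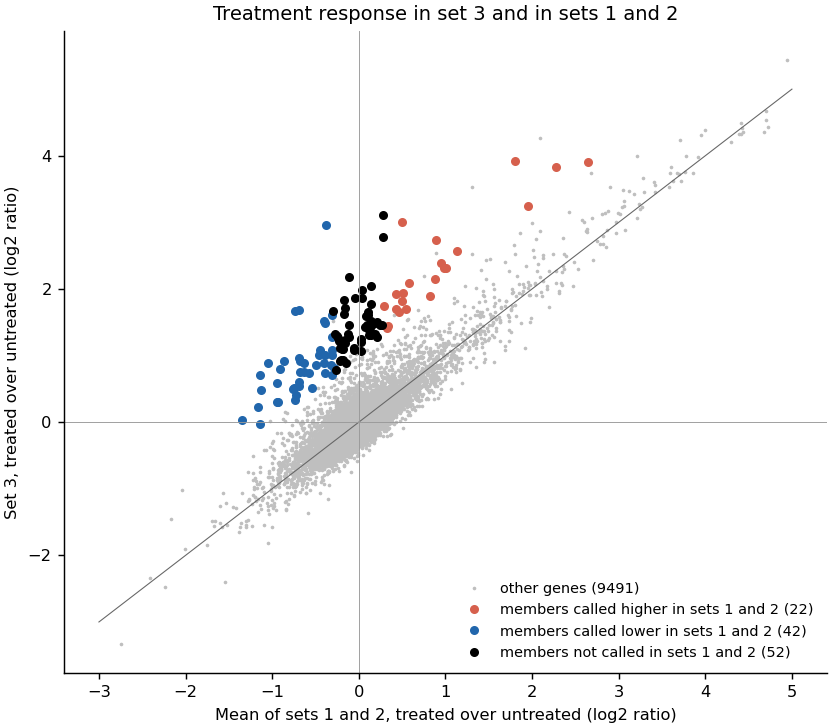
Mean log2 ratio of sets 1 and 2 (horizontal axis) and of set 3 (vertical axis) for each gene, with members coloured by their limma call in sets 1 and 2 (22 higher, 42 lower, 52 not called) and all other genes in grey. The diagonal marks equal ratios; the members lie above it along the whole range from -1.34 to 2.65.

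The members most raised in sets 1 and 2 included genes of the immune response. Of the 7 members grouped here as immune receptors, ligands and adaptors, 4 were called higher in sets 1 and 2. Of the others, 1 was called lower (Cysltr1) and 2 were not called (Raet1d and Clec5a). Of all members 19% and of all genes 16.4% were called higher. Ifnb1, encoding interferon beta, had 4.03 and 3.79 in set 3, against 2.88, 2.23, 3.13 and 2.36 in sets 1 and 2. Stap1, an adaptor first known from B cells, had 4.11 and 3.73 in set 3, against 1.73, 1.72, 1.66 and 2.12, the highest set 3 mean of any member. Calcrl was counted in this group, although it is a receptor that binds the peptides CGRP or adrenomedullin, depending on its partner. It had 3.12 and 3.37 in set 3, against 2.14, 1.67, 2.20 and 1.83. Each was thus clearly raised in all sets, and 2.39-fold, 4.32-fold and 2.43-fold more so in set 3.

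Ly96, encoding MD-2, had 2.31 and 2.33 in set 3, against 0.95, 0.98, 1.03 and 1.08 in sets 1 and 2. This LPS co-receptor subunit therefore doubled in sets 1 and 2 (2.01-fold) and rose 4.99-fold in set 3, with almost no spread among arrays of one kind. Prdm1, the transcriptional repressor Blimp-1, had a set 3 ratio of 1.90 against 0.82 in sets 1 and 2. Gm8989, to which no role is given here, had 4.0 and 3.67 in set 3, against 2.33, 2.30, 2.28 and 2.21. Esf1, a factor for ribosomal RNA processing known from yeast, had 2.37 and 2.78 in set 3, against 0.89, 0.66, 1.33 and 1.66.

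Genes of chromosomes and cell division formed the largest role group, put together with the results known. The share of such genes among all measured genes was not determined. Of its 20 members, 12 were called lower in sets 1 and 2, 0 were called higher and 8 were not called. Of all members 36.2% and of all genes 14.7% were called lower. The set 3 ratios of the 20 ran from 0.30 to 2.19 (Top2b, not called) with a median of 1.01, against a median of -0.35 in sets 1 and 2. The genes named next were all among the 12 called lower. Esco2, which acetylates cohesin so that sister chromatids hold together, had 0.86 and 0.93 in set 3, against -1.07, -1.26, -0.92 and -0.94. Ccne2, a cyclin of the start of DNA replication, had a set 3 ratio of 0.80 against -0.91. Smc2, Smc4 and Ncapg, which are subunits of the condensin complex, had 0.97, 1.01 and 0.30 in set 3, against -0.69, -0.39 and -0.94 in sets 1 and 2. The kinetochore gene Cenpk had 0.41 in set 3 against -0.73, and Tipin, which stabilises replication forks, had 0.76 against -0.68.

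A separate list of 25 measured cell cycle genes did not hold a member. It thus leaves out the genes just described and does not stand for all genes of cell division. Its median was -0.60 in set 3 and -0.75 in sets 1 and 2. In sets 1 and 2, 23 of the 25 were called lower and 0 higher, against 14.7% and 16.4% of all genes. Of the 25 genes, 22 were higher in set 3 than in sets 1 and 2, against 4839 of all 9607 genes. The median difference of the 25 was 0.16 and the highest 0.76. By its median the list was still lower in treated cells of set 3.

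RNA-binding and RNA-processing genes were the next largest group, with 17 members. In sets 1 and 2, 6 were called lower, 2 higher and 9 not at all. Over all members 36.2% were called lower and 19% higher, against 14.7% and 16.4% of all genes. Serbp1, an RNA-binding protein found on ribosomes, had -0.03 and 0.10 in set 3, against -1.14, -1.65, -1.0 and -1.58, the lowest sets 1 and 2 mean of any member. Srsf10, a splicing factor, had 0.65 and 0.75 in set 3, against -0.88, -1.26, -0.95 and -1.45. It was the single member among 14 measured splicing factors and hnRNP proteins. All 14 were at least slightly higher in set 3 than in sets 1 and 2 (median difference 0.38), against 4839 of all 9607 genes. The RNA helicase Dhx36 was called higher in sets 1 and 2, with 0.50 there and 1.83 in set 3. Wtap, part of the enzyme complex that writes N6-methyladenosine, had 1.59 in set 3 against 0.08.

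Of 11 members that act in transcription or chromatin, 6 were called lower in sets 1 and 2 and 2 higher (Prdm1 and Taf1d). The shares called lower and higher were 36.2% and 19% of all members and 14.7% and 16.4% of all genes. Ccnc, the cyclin of the Mediator kinase module, had 0.23 and 0.21 in set 3, against -1.02, -1.26, -1.08 and -1.28. The chromatin protein Hmga2 had 1.87 in set 3 against -0.05. In the ubiquitin group, Usp9x, a deubiquitinase, had 0.64 and 0.34 in set 3, against -1.08, -1.08, -1.17 and -1.17. Mmd, a membrane protein named for its rise as monocytes become macrophages, had -0.06 and 0.01 in set 3, against -1.05, -1.31, -1.02 and -1.17. Mmd and Serbp1 were the 2 members with a set 3 array below 0, and for them set 3 showed the absence of a fall and no rise.

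The 8 members of the secretory pathway all had positive means in sets 1 and 2, from 0.03 to 0.58. Of the 8, 4 were called higher (Scfd1, Emc2, Dnajb9 and Tmed5), against 19% of all members and 16.4% of all genes. Scfd1, which helps vesicles fuse on the way to the Golgi, had 2.08 in set 3 against 0.58. Dnajb9, a co-chaperone of the endoplasmic reticulum, had 1.27 and 1.57 in set 3, against 0.09, 0.16, 0.40 and 0.64. It was the 1 member of the 18 measured unfolded protein response genes, whose median was 0.33 in set 3 and 0.24 in sets 1 and 2. In mitochondria, 7 members ran from 0.74 to 1.94 in set 3 and from -0.69 to 0.51 in sets 1 and 2. Among 9 metabolic enzymes and transporters, 5 were called lower in sets 1 and 2, against 36.2% of all members and 14.7% of all genes. The 5 include Glul, which makes glutamine (1.00 in set 3 against -0.46), and Nampt, which makes an NAD precursor (0.88 against -0.40).

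In several families of genes grouped by symbol, 1 measured gene was a member while the median difference of the family was near 0. These families were picked after the members were known, and the genes above the threshold are what selected them. Ndufa5, a subunit of NADH dehydrogenase, was the 1 member among 31 measured genes named Nduf, at 1.13 above sets 1 and 2. The median difference of the 31 was -0.09, and they include assembly factors (Ndufaf genes) and a pseudogene entry besides subunits. Atp5md stood 2.37 above sets 1 and 2, and the median of 13 ATP synthase genes was -0.04. Uqcrb was 1 of 6 cytochrome bc1 genes, Med21 1 of 19 Mediator genes named Med and Polr2k 1 of 11 RNA polymerase II genes. Lsm5 was 1 of 10 Lsm genes and Rpl22l1 1 of 29 ribosomal protein genes. In these 5 families the median difference lay between -0.09 and 0.09. Mediator held a further member outside the genes named Med, since Ccnc of its kinase module stood 1.38 above sets 1 and 2.

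Eif3e and Eif3j1 were 2 of 8 measured subunits of the initiation factor eIF3, and the family's median difference was -0.06. Condensin and the related SMC genes had 3 members of 6, all 6 genes were above 0, and the median difference was 0.89. Their cohesin relatives Smc1a and Smc3 differed from sets 1 and 2 by 0.14 and 0.02, and Smc6 by 0.55. Of 91 zinc finger genes named Zfp, 58 were above 0 and 6 were members, against 4839 and 116 of all 9607 genes. Some of the Zfp members, like the Xlr and Raet1 genes, belong to families with similar copies. Probe sequences were not analysed here, so which copy was measured is uncertain.

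**Figure D4:**
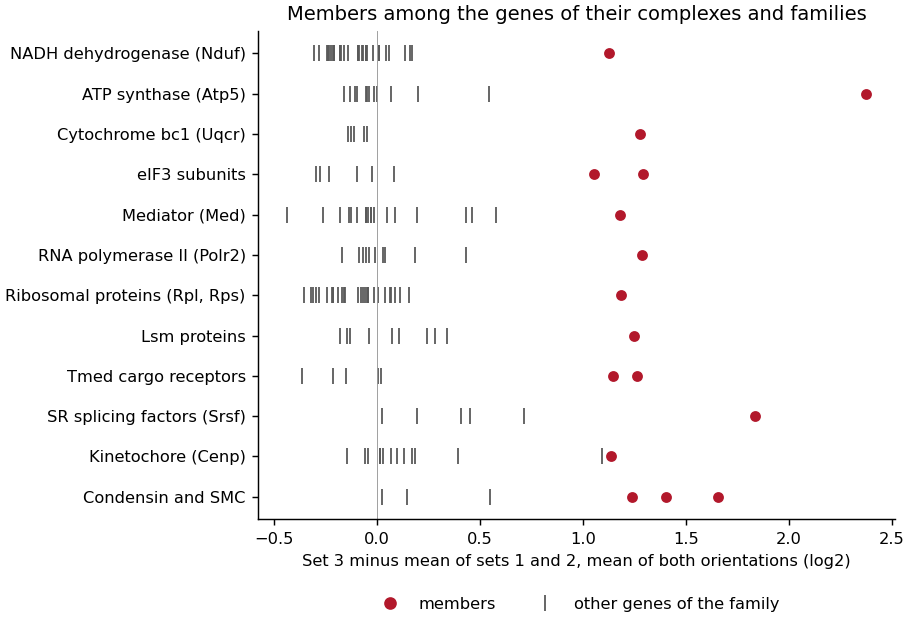
Difference of set 3 from the mean of sets 1 and 2 (log2, mean of both orientations, horizontal axis) for the genes of 12 complexes or families; red circles are members and grey ticks the other measured genes. Most families have 1 or 2 members far to the right of ticks that gather around 0, and the SR splicing factors and condensin genes lie at or above 0 throughout.

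Separate probes of one gene did not always agree. A single probe measured 98 members, and 18 members had 2 probes each. For 8 of the 18 both probes passed the rule, among them Cysltr1, Smc2, Ncapg, Tipin and Dnajb9. For 6 others (Phip, Inpp5e, Clec5a, Eif2s3y, Fam166c and Naa15) 1 probe differed by less than 0.3 between set 3 and the other sets, by the mean of both orientations. For Ddx3x, Taf1d, Nampt and Apoo 1 of 2 probes passed, and the other had a mean difference of 0.60, 0.67, 0.88 and 1.07. These genes and those in the next sentences were named after their values were seen.

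Inpp5e, a phosphatase of inositol lipids, was the clearest such case. One probe had 3.61 and 3.40 in set 3, against 0.60, 0.20, 0.70 and 0.61 in sets 1 and 2. The other, annotated to the same transcript, had -0.31 and -0.25 in set 3, against -0.26, -0.62, -0.12 and -0.26. Both probes of Naa15, a subunit of an N-terminal acetyltransferase, also name one transcript, and they had mean differences of 1.93 and 0.15. For Clec5a, a myeloid lectin receptor, the differences were 2.70 and 0.03. The median gap between probes was 0.63 for the 18 members and 0.16 for the 1846 genes with more than 1 probe; a high probe helps a gene pass, so a larger gap among members is built into the rule. The gene values of these 6 members rest on 1 of 2 probes.

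**Figure D5:**
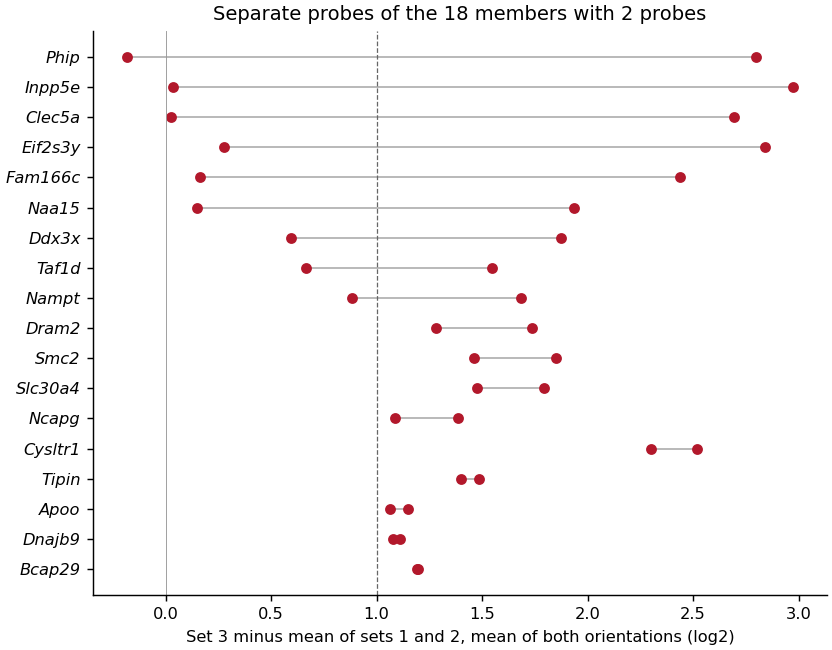
Difference of set 3 from the mean of sets 1 and 2 (log2, mean of both orientations, horizontal axis) for each probe of the 18 members with 2 probes; a grey line joins the probes of a gene and the dashed line marks 1. The 6 genes at the top have one probe near 0 and the other at 1.93 or more, while in the other 12 both probes are at 0.60 or more.

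Set 1 and set 2 could be compared without the rule, which used only their mean. In limma, with dye orientation as a term, 0 of 9607 genes (0%) and so 0 of 116 members differed between set 1 and set 2 after adjustment, and robust moderation also called 0. At an unadjusted p under 0.05 there were 15 members (12.9%) and 639 genes (6.65%). The absolute difference between these sets had a median of 0.16 for members and 0.14 for all genes. Ifnb1 differed most among the members, with 3.01 in set 1 and 2.29 in set 2 (difference 0.71, limma unadjusted p = 0.00566).

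The dye orientation was likewise outside the rule. In limma 0 members and 35 genes (0.364%) had a dye effect after adjustment, and at an unadjusted p under 0.05 there were 0 members and 1560 genes (16.2%). The spread in that fit contains the difference of set 3, which is large for every member. Without set 3, the unadjusted counts were 20 members (17.2%) and 1171 genes (12.2%), with 0 members and 17 genes after adjustment. The median absolute dye coefficient was 0.08 for members and 0.08 for all genes, and the 2 set 3 arrays differed by a median of 0.16 for members and 0.15 for all genes.

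The members lay on 20 chromosomes. The X chromosome held 11 of 116 (9.48%), against 3.44% of the 9570 measured genes with a known chromosome, and chromosome 16 held 0 of its 334 measured genes. These shares were picked out from those of all chromosomes and were not tested. The 11 were Usp9x, Ddx3x, Xlr, 3830403N18Rik, 5430427O19Rik, Apoo, Apool, Cysltr1, Hmgn5, Sh3bgrl and Chm. In 4 pairs of neighbours in the gene order of GRCm38.p6 both genes were members, namely Eif3e with Emc2 on chromosome 15, Abce1 with Anapc10 on chromosome 8, and Usp9x with Ddx3x and Hmgn5 with Sh3bgrl on the X chromosome.

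The neighbours were alike in some pairs and apart in others. Eif3e, a subunit of eIF3, and Emc2, part of a complex that inserts membrane proteins, had 1.51 and 1.74 in set 3 and 0.22 and 0.29 in sets 1 and 2. Hmgn5, a nucleosome-binding protein, had 1.28 in set 3 against -0.31, whereas Sh3bgrl beside it had 3.10 against 0.28. Usp9x had 0.49 against -1.13, and the RNA helicase Ddx3x had 0.55 against -0.69. The Ddx3x value averages 2 probes with mean differences of 1.87 and 0.60, and the lower probe did not pass the rule. Abce1, which splits ribosomes for recycling, had 0.93 against -0.21, and Anapc10, a subunit of the anaphase-promoting complex, had 1.09 against -0.06.

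Promoter sequences from RefSeq (GRCm38.p6, 300 bases around the gene's start) are shown for 2 of the neighbouring pairs and for Ifnb1, the member most raised in sets 1 and 2. Capitals mark matches to the searched letters TATAAA, TGACGTCA or ACGTG on either strand, so CACGT in Hmgn5 is ACGTG on the other strand. Each is written 5′ to 3′ along its gene. Sh3bgrl lies at chrX:109095157-109095456 on the plus strand, Hmgn5 at chrX:109013331-109013630 on the minus strand, Abce1 at chr8:79711691-79711990 on the minus strand, Anapc10 at chr8:79711513-79711812 on the plus strand and Ifnb1 at chr4:88522745-88523044 on the minus strand.
Sh3bgrl: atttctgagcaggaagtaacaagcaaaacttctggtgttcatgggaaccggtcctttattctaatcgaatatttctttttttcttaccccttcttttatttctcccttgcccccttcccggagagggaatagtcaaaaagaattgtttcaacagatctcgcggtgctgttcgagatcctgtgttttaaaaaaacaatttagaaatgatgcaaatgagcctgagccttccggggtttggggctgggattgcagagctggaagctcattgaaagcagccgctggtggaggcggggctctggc
Hmgn5: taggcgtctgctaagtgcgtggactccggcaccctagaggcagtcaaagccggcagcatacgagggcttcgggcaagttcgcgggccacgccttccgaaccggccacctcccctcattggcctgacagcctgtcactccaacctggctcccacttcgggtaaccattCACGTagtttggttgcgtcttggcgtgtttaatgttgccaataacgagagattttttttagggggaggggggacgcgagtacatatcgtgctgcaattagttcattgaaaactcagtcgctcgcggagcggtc
Abce1: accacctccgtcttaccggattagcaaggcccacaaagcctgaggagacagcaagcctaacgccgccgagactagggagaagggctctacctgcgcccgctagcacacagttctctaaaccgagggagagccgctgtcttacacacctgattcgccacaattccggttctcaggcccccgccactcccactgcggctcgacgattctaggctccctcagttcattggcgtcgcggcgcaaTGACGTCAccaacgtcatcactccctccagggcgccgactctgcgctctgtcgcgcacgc
Anapc10: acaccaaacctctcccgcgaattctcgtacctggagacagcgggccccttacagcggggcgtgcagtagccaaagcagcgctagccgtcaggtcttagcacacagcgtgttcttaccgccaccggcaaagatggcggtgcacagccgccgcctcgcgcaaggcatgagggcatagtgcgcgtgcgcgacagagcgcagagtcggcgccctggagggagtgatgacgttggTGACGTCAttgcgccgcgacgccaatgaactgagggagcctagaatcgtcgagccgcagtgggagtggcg
Ifnb1: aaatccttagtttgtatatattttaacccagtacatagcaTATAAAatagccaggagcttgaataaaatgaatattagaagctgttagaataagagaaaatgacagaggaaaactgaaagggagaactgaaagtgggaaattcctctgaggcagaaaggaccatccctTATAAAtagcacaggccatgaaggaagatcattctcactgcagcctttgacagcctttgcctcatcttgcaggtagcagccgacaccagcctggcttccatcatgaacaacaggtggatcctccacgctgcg

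Abce1 and Anapc10 are read in opposite directions from windows that share 122 bases, and the one TGACGTCA, the letters of a full cAMP response element, lies in both. Ifnb1 has TATAAA at 2 places, and Sh3bgrl has none of the 7 motifs searched. Of the 116 members, 91 were found in the promoter table. Their median GC content was 60%, against 58.7% for 7624 measured genes and 52.7% for all 27025 promoters, and the median number of CpG dinucleotides was 23, against 17 and 7. TGACGTCA was in 5 of 91 member promoters (Skp1, Dhx36, Abce1, Med21 and Anapc10; 5.49%), against 2.62% of measured and 1.88% of all promoters, and 2 of the 5 are the shared site.

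The other motifs were searched on both strands, with shares given for members against measured genes. TATAAA was in 11% against 10.9%, and ACGTG, the core of the hypoxia response element, in 22% against 23.5%. The E-box CACGTG, which contains ACGTG, was in 8.79% against 9.42%. The AP-1 letters TGANTCA were in 4.4% against 6.72%, the interferon response core (GAAA, any 2 bases, GAAA) in 2.2% against 3.27%, and the NF-kappaB letters (GGG, any 2 bases, TTTCC) in 1.1% against 1.65%. In all promoters these 6 shares were 14.2%, 19.7%, 7.24%, 7.93%, 3.49% and 1.62%. A match describes letters and not a bound site, and a missing match, as in Ifnb1 or Sh3bgrl, does not show that a site is absent.

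The threshold cuts through a continuous range. Just inside it were Pcm1, a centriolar satellite protein, Cstf2t, a cleavage factor for mRNA ends, and 4930438A08Rik, whose smaller difference from sets 1 and 2 was 1.01 in each case. Just outside were the noncoding RNA Gas5, the spermine synthase Sms and the splicing factor Sfpq, at 0.99 each. Gas5 had a set 3 ratio of 1.69 against 0.68 in sets 1 and 2, and Sfpq had -1.01 against -2.04, so a gene well lowered by LPS in every set also lay near the line.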

How the data were processed

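The values used are log2 ratios of the 2 dyes of each array as deposited; how they were corrected and normalized is not given in the sources used here. Columns were turned to treated over untreated by the dyes in the labels. Exact zeros were taken as missing, and only the 13418 probes without a zero on any array entered. Probes naming 1 symbol (13738 of 16281; 52 named several and 2491 are unnamed here) were averaged to 9607 genes. The members, gene lists and role groups were chosen with earlier results of these data known. limma 3.58.1 (lmFit, eBayes, two-sided, Benjamini-Hochberg over 9607 genes, threshold 0.05) was run in R 4.3.3 on set means for the response, and on arrays with orientation as a term for set 1 minus set 2 and for the dye; scripts used Python 3.11.15.

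Named genes are the 12 widest separations (by the smaller of the 2 orientations' differences), the 6 highest and 6 lowest in sets 1 and 2, the 3 members and 3 genes next to the threshold, members of fixed lists, and neighbouring members. Other genes were named after their values were seen. On simulated data for 9607 genes, 6.7% of the calls over 3 sets were false. For sets 1 and 2 it was 21.19% when the data were drawn with the spread of all 3 sets. After that result they were drawn with the spread of the fit itself and with less noise on single arrays, and it was 6.6%. The 2 shares thus differ in more than the spread. With 2 set means that fit says little about a gene's own spread, so its calls are uncertain. For set 1 minus set 2, 5.21% were false. Those data had the same noise for every gene and large true differences, so this share says little about genes of uneven spread.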

Additional observations from a re-analysis of the deposited data

How the results depend on the processing

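The rule gave 33 genes at a threshold of 1.5 and 163 at 0.8. It gave 89 after quantile normalization (88 of them among the 116) and 109 with exact zeros kept as ratios of 1 (108 among the 116). With zeros kept, 1 gene (Il33) lay below -1 on both set 3 arrays; after quantile normalization 0 did. Members called over 3 sets numbered 22, but 2 with zeros kept, 3 with robust moderation, and 20 to 64 when each set was left out in turn (64 without set 3). For sets 1 and 2 the 64 called members became 0 with zeros kept, where 0 genes were called and limma warned of zero variances. The causes of these changes were not tested. The median of members in sets 1 and 2, -0.16, was -0.25 on arrays with treated RNA in Cy5 and -0.05 on those with treated RNA in Cy3, and lay between -0.16 and -0.1 when either set was left out. Genes with a dye effect numbered 35, 15 with zeros kept, and 4 to 17 when a set was left out. With the set number as a replicate block, 29 members were called over 3 sets and 29 without the block on separate arrays; in sets 1 and 2 these counts were 71 and 53. Whether a set number pairs arrays was not tested. Deviations of same-numbered arrays from the mean of their orientation correlated at 0.219, 0.079 and 0.57 in sets 1, 2 and 3. The highest correlation of each set's array with treated RNA in Cy5 with another number was 0.168, 0.208 and -0.223. Only in set 2 was it thus above that with the same number. All sets enter each mean, so these values depend on one another, and 0.57 is the correlation already given for set 3. Signal over background is not given, so what dim spots limit is unknown.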

Other observations

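Some genes that the rule did not select had 1 probe that passed it, and are named here after their values were seen. Rlim, a ubiquitin ligase on the X chromosome, had 1 probe with 1.89 and 1.89 in set 3, against 0.10, 0.08, 0.20 and 0.18 in sets 1 and 2, while its other probes differed from sets 1 and 2 by less than 0.3. A probe of Ube2v2, a ubiquitin-conjugating enzyme variant, had 1.60 and 1.96 in set 3, against -0.05, -0.35, 0.32 and 0.23, and its second probe had -0.08 and -0.35 in set 3. For Tmsb4x, the actin-binding thymosin beta 4, 2 of 3 probes passed. Of 33 genes with more than 1 probe and at least 1 past the threshold, 8 had every probe past it and 16 had a probe under 0.3. A further 18 passing probes had no single symbol, with mean differences from 1.08 to 2.11 and means in sets 1 and 2 from -1.0 to 0.23. No probe of any kind lay below -1 on both set 3 arrays.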
